A study of Mus musculus with 4 samples.

Results

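The 10 genes described here encode the Myc transcription factors, their partner and antagonist proteins, the Lin28 RNA-binding proteins and 2 transcripts that the Lin28 pathway controls. They were listed by name as progenitor genes, out of 21951 protein-coding genes of the GENCODE M21 annotation (mm10). The rule used no peak value, but the list was drawn up with earlier results of these data known. They are *Myc*, *Mycn*, *Mycl*, *Max*, *Mxi1*, *Mga*, *Lin28a*, *Lin28b*, *Hmga2* and *Igf2bp1*. The study mapped the chromatin sites of Eya1, a transcriptional coactivator and phosphatase without a DNA-binding domain of its own, in mouse kidneys at E13.5. Eya1 carried an HA-FLAG tag knocked into its own locus, the mice had a mixed background (C57BL/6J with a second strain), and 80 kidneys went into each anti-FLAG chromatin immunoprecipitation (ChIP). There were 2 Eya1 ChIP samples, 1 input and 1 IgG control; the lists of both ChIP samples were used, and the controls were not analysed here. All kidneys were whole organs of tagged mice, so the lists sum over every cell type that makes Eya1, and neither the labels nor the methods say whether the ChIP replicates came from separate pools.

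Myc proteins bind E-box sequences as heterodimers with Max and drive ribosome production, metabolism and division, while Mxd proteins such as Mxi1 and the large protein Mga compete for Max and repress the same sequences. Lin28a and Lin28b bind the precursors of let-7 microRNAs and block their maturation, which keeps up let-7 targets such as *Hmga2* and *Igf2bp1* in embryonic tissue. In the kidney, *Mycn* and the Lin28/let-7 axis are known for sustaining nephron progenitors and for setting how long nephrons are made. Rest, a repressor of neuronal genes outside neurons, binds the RE1 element, which is read here next to the Lin28 genes.

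Replicate 1 listed 4041 peaks within 1 kb of an annotated transcription start site (TSS) and 236 elsewhere, and replicate 2 listed 3534 and 630, with 11 more on the mitochondrial chromosome. Each peak is given as a chromosome, a start and an end, with no height, score or read count, so the depth behind a peak is unknown, no test between replicates was possible, and width is the only size a peak has. Replicate 1 peaks at promoters had a median width of 1099 bp (171 to 5380 bp) and those of replicate 2 a median of 199 bp (117 to 1414 bp). A missing peak therefore says only that none was listed, and a peak is called wide or narrow only against its own list. A peak is called a promoter peak within 1 kb of any annotated TSS of the gene, a gene body peak if it overlaps the gene elsewhere, and a distal peak within 100 kb of a TSS of the gene.

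A peak of some class was listed at 9 of the 10 members, and at 4 of them (*Myc*, *Mycn*, *Mycl* and *Max*) in replicate 1 alone. Promoter peaks were listed at 6 of the 10 members in replicate 1 (*Myc*, *Mycn*, *Max*, *Mxi1*, *Hmga2* and *Igf2bp1*), against 20.2% of all protein-coding genes. In replicate 2, promoter peaks were listed at 2 of the 10 (*Hmga2* and *Igf2bp1*), against 14.7% of all genes. The count in either list was thus 6 of 10, or 60.0%, against a background of 23.5%, and the count in both lists with overlapping peaks was 2 of 10, or 20.0%, against 11.3%. The 6 include *Myc* and *Mycn*, whose replicate 1 peaks covered all coding bases of each gene, a pattern whose source was not tested. The members had 14 peaks in replicate 1 and 6 in replicate 2. *Myc*, *Mycn*, *Max* and *Mxi1* had promoter peaks in replicate 1 only. *Mycl*, *Mga*, *Lin28a* and *Lin28b* had none in either list.

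**Figure D1:**
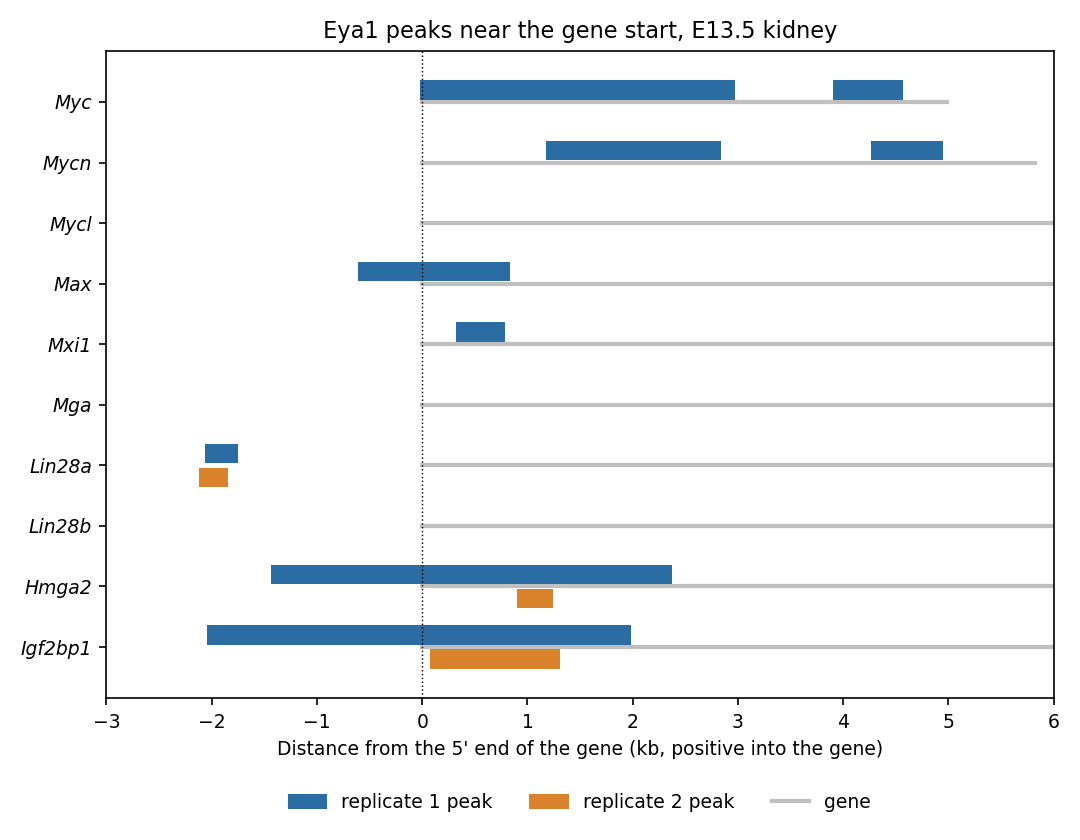
Eya1 peaks from 3 kb before to 6 kb after the 5′ end of each gene, with replicate 1 peaks drawn above and replicate 2 peaks below the grey line that marks the gene, to scale. The start is covered at *Myc*, *Max*, *Hmga2* and *Igf2bp1* in replicate 1, the *Mycn* peaks lie inside the gene, and *Lin28a* has a pair of overlapping peaks before its start.

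At *Myc* (chr15:61985391-61990374, plus strand), the founding member of the family, replicate 1 listed a peak of 2997 bp at chr15:61985367-61988363. It ran from -24 to 2972 bp of the gene start and was the 52nd widest of the list, with 98.8% of the peaks narrower. A further peak of 663 bp lay in the gene body at chr15:61989293-61989955. The nearest replicate 2 peak to *Myc* was 2340 kb away, 210 bp wide, at *Trib1*, which encodes a pseudokinase. *Myc* thus had one of the widest replicate 1 peaks and no counterpart. Of the 51 replicate 1 promoter peaks at least as wide, 44 (86.3%) overlapped a replicate 2 peak, against 55.9% of the 4444 genes with a replicate 1 promoter peak that had an overlapping peak in replicate 2.

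*Mycn* (chr12:12936093-12941914, minus strand), the family member most tied to embryonic progenitors, showed the same arrangement of a wide and a narrow peak. Replicate 1 listed 1665 bp at chr12:12939076-12940740 and 684 bp at chr12:12936968-12937651, and the nearest replicate 2 peak was 307 kb away. The wider peak began 1174 bp inside the gene from its 5′ end and was a promoter peak only through an internal TSS, so with gene 5′ ends alone *Mycn* had none. Of replicate 1 promoter peaks at least as wide, 519 of 705 (73.6%) overlapped a replicate 2 peak.

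The *Myc* and *Mycn* peaks together covered the whole coding sequence of each gene. Replicate 1 peaks covered all 1362 coding bases of *Myc* and all 1386 of *Mycn*, but 69.1% and 13.8% of their annotated UTR and noncoding exon bases. At *Myc*, the wide peak held the 772 bp coding segment of the middle exon and ended 85 bp past it, and the narrow peak held the 560 bp segment of the last exon with 53 and 50 bp to spare. At *Mycn*, the wide peak held a 784 bp segment with 534 and 347 bp beyond it, and the narrow peak held a 602 bp segment with 41 bp to spare at each end. Both narrow peaks were therefore close to the length of a coding segment. Among the 12200 genes with at least 2 coding segments and 1000 coding bases, replicate 1 peaks covered every coding base of 6 (0.0492%), namely *Hoxd9*, *Crebzf*, *Zfp703*, *Zfp36l2*, *Mycn* and *Myc*, and replicate 2 peaks of none (0%). This measure was chosen after the peaks of *Myc* and *Mycn* were seen.

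Of the 236 replicate 1 peaks more than 1 kb from any TSS, 11 enclosed a coding segment with at most 100 bp at either end. These 11 lay in 4 genes: 5 in *Eya1*, 4 in *Smarcc2*, a chromatin-remodelling subunit, and 1 each in *Myc* and *Mycn*. With up to 200 bp at either end, *Six2*, the nephron progenitor factor, was added, and with up to 50 bp only *Mycn* and *Smarcc2* were left. None of the 630 such replicate 2 peaks enclosed a segment at any of these margins. The input and IgG tracks were not analysed here, and the source of the coding-segment peaks was not tested. Gene body peaks of any kind were listed at 1.07% of genes in replicate 1, where *Myc* and *Mycn* made 2 of the 10 members, and at 1.58% in replicate 2, where no member had one.

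*Mycl* (chr4:122995652-123002485, plus strand), the remaining Myc paralogue, had no peak at its start or in its body. Its sole peak was distal, in replicate 1, 403 bp at chr4:123016581-123016983, and it lay at the start of *Trit1*, a transfer RNA-modifying enzyme, 20929 bp from the start of *Mycl*. The nearest replicate 2 peak was 110 kb away at *Cap1*, just outside the 100 kb limit. Of the 3 Myc paralogues, then, *Mycl* was the one without a peak of its own.

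*Max* (chr12:76937269-76962201, minus strand) encodes the partner through which all Myc proteins bind DNA. Its replicate 1 peak of 1441 bp at chr12:76961369-76962809 ran from -608 to 832 bp of the gene start, and 75.2% of the list was narrower. The nearest replicate 2 peak was 569 kb away, although 743 of 1051 (70.7%) of the replicate 1 promoter peaks at least as wide overlapped a replicate 2 peak. The sequence of the *Max* promoter is shown because it is the member promoter that lay wholly under a peak and also held the E-box that Myc and Max themselves bind. It is the RefSeq promoter (GRCm38.p6, chr12:76962199-76962498, minus strand, 250 bases before to 50 after the start), with the E-box CACGTG in capitals at -3 from the start.
Max promoter: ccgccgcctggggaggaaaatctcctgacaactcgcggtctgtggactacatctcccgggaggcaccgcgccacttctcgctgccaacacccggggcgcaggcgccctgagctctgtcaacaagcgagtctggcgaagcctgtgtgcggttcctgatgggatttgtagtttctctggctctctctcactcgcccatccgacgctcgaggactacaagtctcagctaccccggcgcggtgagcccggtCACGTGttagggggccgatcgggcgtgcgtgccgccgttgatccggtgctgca

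The RefSeq table held promoters of 8 of the 10 members, and *Myc* and *Igf2bp1* were not matched. *Max* and *Lin28b* were the 2 of these 8 with CACGTG, at -3 and at -49 from the RefSeq start, and 7.15% of all 32851 promoters in the table held it. The RefSeq promoter of *Lin28b* (chr10:45470152-45470451) lies inside the GENCODE gene, not at the gene start from which its peaks were measured. At GENCODE 5′ ends, *Max* alone held the E-box. *Lin28b*, however, had no promoter peak. The GC box GGGCGG, read on both strands, was in promoters of 6 of the 8 (*Mycn*, *Mycl*, *Mxi1*, *Mga*, *Lin28a* and *Hmga2*), and in 35.7% of all promoters. CCAAT, read on both strands, was in that of *Lin28b* alone and in 37.4% of all. The *Max* promoter held 30 CpG dinucleotides, more than 88.3% of all promoters, while those of *Lin28a* and *Lin28b* held 10 and 8, near the median of 7. The *Hmga2* promoter held 12, that of *Mycn* 14, that of *Mycl* 22 and that of *Mga* 24. The *Mxi1* promoters held 17, 21 and 49. Among these 8 members the CpG count thus did not follow the peaks, and *Myc* and *Igf2bp1*, which had promoter peaks, could not be included. All 300 bases of the *Max* and *Hmga2* promoters lay under replicate 1 peaks. The promoters of the other 6 matched members had none of their bases under a peak of either list, *Mycn* and *Mxi1* included, whose peaks began farther into the gene.

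*Mxi1* (chr19:53310518-53375810, plus strand), a Mxd-family antagonist of Myc, had the narrowest member promoter peak of replicate 1. It was 465 bp at chr19:53310842-53311306 in replicate 1, began 324 bp past the gene start, and 6.71% of the list was narrower. Both replicates also listed overlapping peaks beyond the end of the gene, at the start of *Smndc1*, a splicing factor, with midpoints 79.9 and 79.8 kb from the start of *Mxi1*. These were 1458 bp in replicate 1 and 482 bp in replicate 2, the latter wholly inside the former. The nearest replicate 2 peak to any *Mxi1* TSS was thus at another gene, 20.0 kb away.

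*Mga* (chr2:119897228-119969581, plus strand), a Max partner that recruits a Polycomb complex, was the only member without a peak in any class. Its nearest peaks were 221 kb away in replicate 1 (1103 bp) and 222 kb away in replicate 2 (202 bp), both at *Rtf1*, a transcription elongation factor. Across all genes, 58.5% had a promoter, gene body or distal peak in either list, against 9 of the 10 members.

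Neither *Lin28a* nor *Lin28b* had a promoter or gene body peak in the lists read here, and both had a peak with an RE1 before the gene. The paper, by contrast, reports Eya1 together with Six2 at the *Lin28b* promoter. At *Lin28a* (chr4:134003330-134018841, minus strand), replicate 1 listed 312 bp at chr4:134020595-134020906 and replicate 2 listed 281 bp at chr4:134020684-134020964. Their midpoints lay -1.91 and -1.98 kb from the gene start, and they shared 223 bp, which is 79.4% of the replicate 2 peak and 71.5% of the replicate 1 peak. The replicate 1 peak was narrow for its list, with 2.38% of peaks narrower, and the replicate 2 peak wide for its own, with 74.3% narrower.

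The *Lin28a* peak held a pair of RE1 elements. The search used the 17-base RE1 consensus on both strands with up to 2 mismatches. The element at chr4:134020830-134020846 matched with no mismatch and lay 87 bp from the replicate 1 midpoint and 14 bp from the replicate 2 midpoint, on the minus strand. A second element with 1 mismatch lay 13 bases away, at chr4:134020800-134020816, on the same strand. Peaks with an RE1 of no mismatch within 100 kb in both replicates were listed at 1.59% of genes and at 1 member, *Lin28a*.

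At *Lin28b* (chr10:45376620-45486395, minus strand), replicate 2 alone listed a peak of 131 bp at chr10:45546958-45547088, -60.6 kb from the gene start. It held an RE1 with 1 mismatch at chr10:45547011-45547027, 4 bp from the peak midpoint, and this element had the same base as the *Lin28a* element of no mismatch at 15 of 17 positions. Both elements were picked by the same consensus, so a likeness between them follows from the search. The paper also reports Eya1, without Six2, at a site with a REST motif about as far before the *Lin28b* promoter as this peak. The replicate 2 peaks of both genes are printed from GRCm38.p6 on the minus strand, to show where the elements lie in them. Capitals mark the RE1 elements, the first in the *Lin28a* peak being the one of no mismatch.
Lin28a peak: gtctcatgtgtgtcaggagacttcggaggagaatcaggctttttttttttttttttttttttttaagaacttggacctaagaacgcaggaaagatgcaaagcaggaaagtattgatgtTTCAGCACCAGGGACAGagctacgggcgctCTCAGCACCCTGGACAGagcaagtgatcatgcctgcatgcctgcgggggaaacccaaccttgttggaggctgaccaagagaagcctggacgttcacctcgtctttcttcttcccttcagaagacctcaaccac
Lin28b peak: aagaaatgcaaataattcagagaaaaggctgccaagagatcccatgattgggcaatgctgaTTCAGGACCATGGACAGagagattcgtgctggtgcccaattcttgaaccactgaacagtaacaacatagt

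The Lin28 peaks with an RE1 also differed in base composition from promoter peaks, which had a median GC content of 63.1% in replicate 1 and 70.1% in replicate 2 over the whole lists. Other peaks away from promoters were not compared, so the difference is not shown to be particular to the Lin28 genes. The GC content was 47.4% and 48.4% in the *Lin28a* peaks and 43.5% in the *Lin28b* peak, against 57.4% to 70.1% in the members' promoter peaks. The ratio of observed to expected CpG was 0.51 and 0.43 at *Lin28a* and 0.16 at *Lin28b*, against 0.58 to 0.84 in the promoter peaks. They were the only members with a distal peak that lay at no gene's promoter, 2 of 10 against 6.30% of all genes. In each gene the other distal peak was at a neighbour in replicate 1, 1893 bp at *Hmgn2*, a nucleosome-binding protein, 50.9 kb from the start of *Lin28a*, and 1122 bp at *Hace1*, a ubiquitin ligase, -92.0 kb from that of *Lin28b*.

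**Figure D2:**
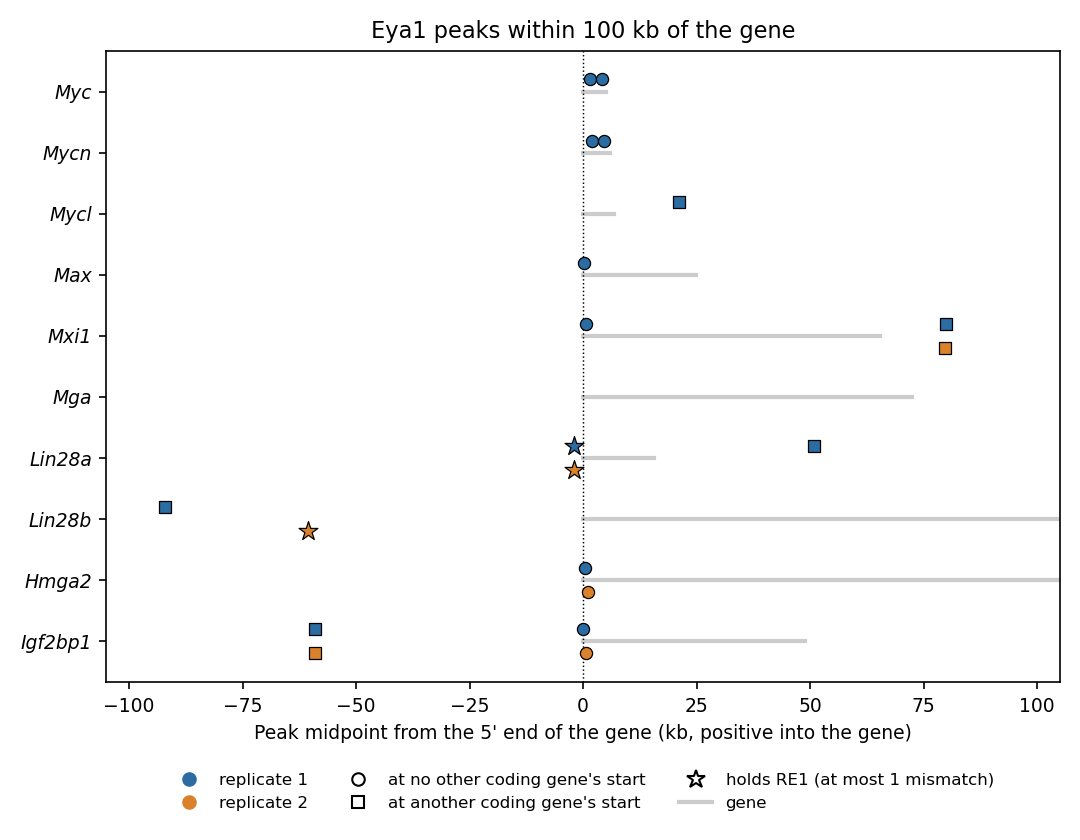
Midpoints of all Eya1 peaks within 100 kb of each gene, in kb from its 5′ end, with replicate 1 above and replicate 2 below the grey line of the gene. Circles are peaks at no other coding gene's start, squares lie at the start of another coding gene, and stars mark the 3 peaks, 2 at *Lin28a* and 1 at *Lin28b*, with an RE1 of at most 1 mismatch.

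Counting all distal peaks, 5 of the 10 members (*Mycl*, *Mxi1*, *Lin28a*, *Lin28b* and *Igf2bp1*) had one in either list, against 48.8% of all genes, which is a share near the background. An RE1 of up to 2 mismatches lay in a peak within 100 kb of 4 of the 10 members, against 17.9% of genes. The other 2 of these were *Myc*, at 329 bp from the midpoint of its wide peak, and *Igf2bp1*, at 8 bp from the midpoint of its replicate 1 peak, each with 2 mismatches. In replicate 1, such a match was in 23.8% of peaks of at least 2000 bp, in 16.4% of those of at least 400 bp and in 17.5% of the whole list, and in replicate 2 it was in 7.76% of peaks of at least 400 bp and in 17.4% of the whole list. With at most 1 mismatch, the Lin28 genes were the 2 of 10 that remained, against 6.80% of genes, and 5.19% of replicate 1 peaks and 11.7% of replicate 2 peaks held such an element.

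*Hmga2* and *Igf2bp1* had the widest promoter peaks of the group in replicate 1 and were the members with promoter peaks in both replicates. *Hmga2* (chr10:120361275-120476469, minus strand) encodes a chromatin architectural protein of proliferating embryonic cells. Its replicate 1 peak of 3817 bp at chr10:120474094-120477910 ran from -1441 to 2375 bp of the start and was the 15th widest of the list. The replicate 2 peak was 338 bp at chr10:120475229-120475566, wholly inside the replicate 1 peak and in intron sequence. It lay 726 bp from the nearest *Hmga2* TSS, the member's peak nearest to the 1 kb limit from inside, while the *Lin28a* peaks, at 1754 and 1843 bp, were the nearest outside it.

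*Igf2bp1* (chr11:95957163-96005940, minus strand) encodes a protein that binds and stabilises *Igf2* and *Myc* transcripts. Replicate 1 listed 4024 bp at chr11:96003959-96007982, from -2042 to 1981 bp of the start and the 11th widest of the list. Replicate 2 listed 1241 bp at chr11:96004628-96005868, from 72 to 1312 bp, the 8th widest of its own list with 99.8% narrower. *Igf2bp1* was thus near the top of both lists by width. The noncoding genes *Gm29202* and *Gm37179* start within 1 kb of the replicate 1 peak. *Gm29202* also starts 21 bp from the replicate 2 peak, nearer than *Igf2bp1* at 72 bp. Neither peak can thus be assigned to *Igf2bp1* alone. Both replicates also listed a peak at *Ube2z*, a ubiquitin-conjugating enzyme, -59.1 kb from the start of *Igf2bp1*, of 1586 and 554 bp.

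**Figure D3:**
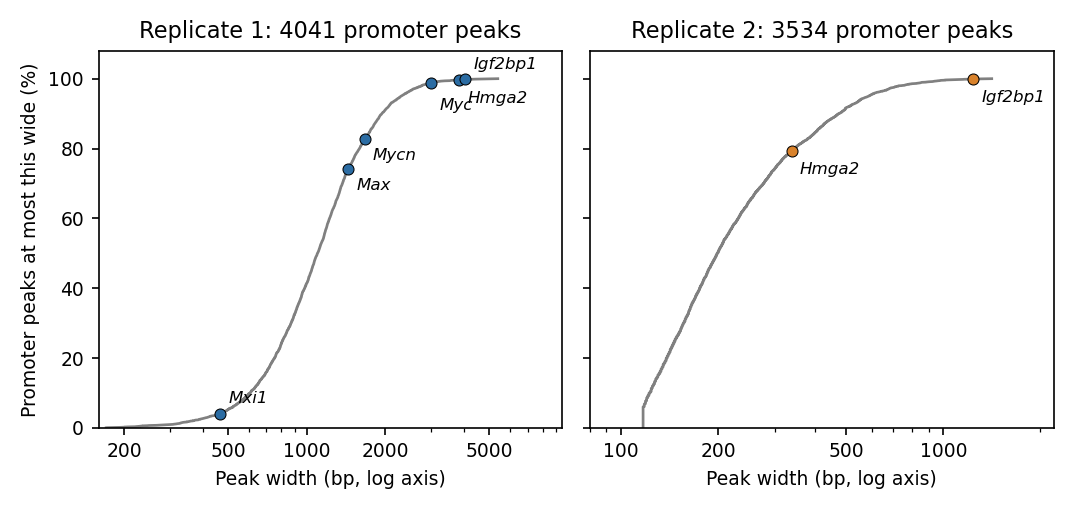
Cumulative share of promoter peaks by width, on a log axis, for replicate 1 (left) and replicate 2 (right), with the members' promoter peaks as points. *Igf2bp1*, *Hmga2* and *Myc* sit at the wide end of replicate 1 at 4024, 3817 and 2997 bp, *Mxi1* at the narrow end at 465 bp, and *Igf2bp1* at the wide end of replicate 2 at 1241 bp.

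The 6 member promoter peaks of replicate 1 had a median width of 2331 bp (465 to 4024 bp), beside 1099 bp for all promoter peaks of that list, and the 2 of replicate 2 had a median of 789.5 bp, beside 199 bp. The let-7 branch shared a feature of its transcripts as well. The let-7 seed match CTACCTC was found 4 times in the longest annotated 3′ UTR of *Hmga2*, 4 times in that of *Igf2bp1*, 4 times in that of *Lin28b* and 2 times in that of *Lin28a*, and in none of the other 6. Across 21759 genes with a 3′ UTR, 9.78% had at least 1 match and 0.170% at least 3. Only this exact match was counted, so the other 6 are not shown to be free of let-7 control. *Hmga2* and *Igf2bp1* were listed as let-7 targets, so the count is a description of the group. It also did not follow the peaks, since *Hmga2* and *Igf2bp1* had the wide promoter peaks and *Lin28a* and *Lin28b* had none.

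The microRNAs that these transcripts meet were read from their own loci. Of the 12 let-7 family genes, 2 had a peak within 1 kb of their annotated start, against 4.50% of all 2202 microRNA genes, and both are named here because their number was small. The annotated start of a microRNA gene need not be the start of its primary transcript. *Mirlet7i* had overlapping peaks in both lists, 611 bp in replicate 1 and 222 bp in replicate 2, and *Mirlet7e* a peak of 4268 bp in replicate 1 alone, the 9th widest of that list. The mature sequences (RefSeq, GRCm38.p6) are printed to show the seed, in capitals at bases 2 to 8, which all 11 family genes with a mature sequence in the table had in common and which pairs with the seed match counted in *Hmga2*, *Igf2bp1* and the Lin28 transcripts.
let-7i: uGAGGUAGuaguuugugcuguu
let-7e: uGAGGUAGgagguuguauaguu

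In the Lin28 and let-7 pathway beyond the members, 10 of 14 genes (71.4%) had a promoter peak in either list, against 23.5% of all protein-coding genes, and 6 in both with overlap, against 11.3%. The widest of these was at *Igf2bp2*, a paralogue of *Igf2bp1*, at 2877 bp in replicate 1 and 134 and 118 bp in replicate 2. *Igf2bp3*, the other paralogue, had 1402 and 400 bp, so all 3 Igf2bp genes had overlapping promoter peaks in both lists. *Dicer1*, which cuts let-7 precursors, had 1525 and 470 bp, and *Xpo5*, which exports them from the nucleus, 1504 and 118 bp. *Hmga1*, *Trim71*, *Drosha* and *Ago1* had none.

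Among 14 Myc cofactors and turnover genes, 10 (71.4%) had a promoter peak in either list, beside 23.5% of all genes, and 3 in both, beside 11.3%. *Trrap*, a scaffold through which Myc recruits acetyltransferases, had 1507 bp in replicate 1 and 202 bp in replicate 2. *Kat5*, a histone acetyltransferase, had 1427 and 304 bp, and *Ep400*, a remodelling ATPase of the same complex, 1316 and 351 bp. The ubiquitin ligase genes *Fbxw7* and *Huwe1*, which act on Myc protein, had no promoter peak.

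Of the 7 other genes of the Myc and Mlx network, 3 (42.9%) had a promoter peak in either list and 2 in both, beside the same 23.5% and 11.3% of all genes. *Mlxip*, a glucose-responsive partner of Mlx, had 1340 and 258 bp. *Mxd4*, an antagonist related to *Mxi1*, had 1170 and 197 bp, and *Mnt*, a further Max-binding repressor, had 2652 bp in replicate 1 alone, as *Max* and *Mxi1* did.

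**Figure D4:**
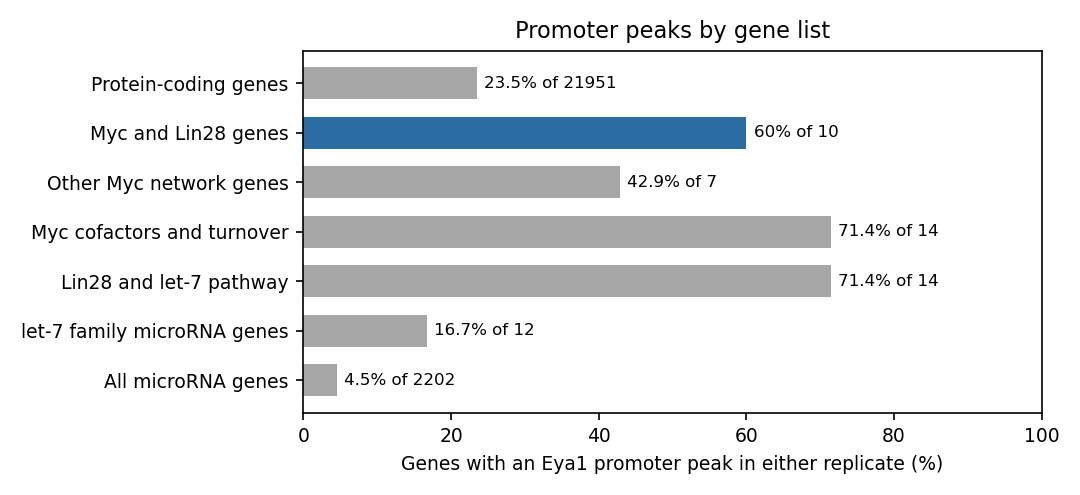
Share of genes with an Eya1 promoter peak in either replicate for all protein-coding genes, the members, 4 wider lists and all microRNA genes, with the number of genes beside each bar, which starts at 0. For microRNA genes this is a peak within 1 kb of the annotated gene start, which need not be the start of the primary transcript. The members, with *Myc* and *Mycn* and their coding-segment peaks among them, stand at 60.0% of 10 beside 23.5% of all protein-coding genes. The let-7 genes stand at 16.7% of 12 beside 4.50% of all microRNA genes.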

How the data were processed

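Eya1 ChIP-seq peaks of 2 samples were read from the deposited peak lists, which give positions only (chromosome, start and end on mm10, with no score or signal). Per the methods, the authors used Bowtie to align reads to mm10, while the labels name HISAT2. They called peaks with MACS against input and against IgG, with no fixed P cutoff, and used the peaks common to both for later steps. Which control and cutoff made each list is not given in the sources used here. Whether they set the widths was not tested, and peaks are ranked by width within a list only. No expression values were used, so the tissue label could not be checked against marker genes.

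Peaks were converted to 1-based positions and set against all TSSs of GENCODE M21 transcripts with Python 3.11.15, numpy 2.4.6 and pysam 0.24.0, and plotted with matplotlib 3.10.9. Peaks of the lists count as overlapping from 1 shared bp. Sequences came from GRCm38.p6 and the RefSeq tables. The members' counts are given beside shares over all protein-coding genes. No test was run, since each list is 1 sample without counts. The class rule and the RE1 search were tested on simulated data. The members and wider lists were chosen with earlier results of these data known. All 10 members are described. Of the wider lists, up to 8 genes with overlapping promoter peaks in both replicates were to be named, widest first, and genes nearest to a distal peak are named with it. *Mxd4*, *Mnt*, the let-7 genes, the genes without a peak and those sharing the coding-segment pattern were named after their values were seen. Alternatives covered the TSS distance and set, peak width, overlap, mismatches and each replicate alone.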

Additional observations from a re-analysis of the deposited data

How the results depend on the processing

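Of 44 alternatives of the counts and widths, 27 gave a count within 1.5 times the one reported or the same width, and of 60 readings of single genes 55 were equal. *Mycn* lost its promoter peak with gene 5′ ends only, *Mxi1* with peaks of at least the median width, *Hmga2* that of replicate 2 at 500 bp, and *Lin28a* gained one in both lists at 2 kb and 5 kb. Members with promoter peaks in both replicates fell to 1 at 500 bp and to 0 when 50% of both peaks had to overlap, a setting that 0.820% of all genes passed. Members with a gene body peak became 6 with promoter peaks counted too, 1 with promoters ending at 2 kb and 0 with peaks of at least the median width. Members with a distal peak became 3 at 50 kb and 2 without peaks at promoters of other genes. Members with RE1 became 2 at 1 mismatch and 1 at none. The median width of member promoter peaks became 1553 bp in replicate 1 at 2 kb, and in replicate 2 it became 1241 bp at 500 bp and 338 bp at 2 kb. Members with an E-box became 1, *Max*, at GENCODE 5′ ends.

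Left with a single replicate, members with a promoter peak ranged from 2 to 6, with a gene body peak from 0 to 2, with a distal peak from 4 to 5 and with RE1 from 2 to 3, and the lower count was the one without replicate 1 in each case. Margins chosen after seeing the data gave 4 coding-segment peaks at 50 bp and 12 at 200 bp, beside 11. No paired analysis was possible because only 1 group has peak lists and no test was run. Depth is unknown, so a missing peak cannot be told from a shallow library.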
